A study of Rattus norvegicus with 12 samples.

Results

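The antioxidant and NADPH oxidase genes described here were 10 listed genes: Gclc and Gclm, which make glutathione; Nqo1, Txnrd1 and Srxn1, which spend NADPH or thioredoxin on reduction; Sod1, Sod2, Cat and Gpx3, which remove superoxide and peroxides; and Nox4, which generates hydrogen peroxide. All 10 were present among the 13151 genes of the table, and all 10 passed the filter on low values, as did 11633 genes in all. The samples were RNA of the renal cortex of male rats killed at 32 weeks of age. The ZL group held 4 Zucker lean rats (rats 1, 2, 3 and 4), the lean control. The ZF group held 4 Zucker fatty rats (rats 2, 3, 4 and 5), the obese model, which carries a defect of leptin signaling in every cell of the animal. The ZF-SGLT2i group held 4 ZF rats (rats 2, 3, 4 and 6) given canagliflozin, an inhibitor of the glucose transporter SGLT2 of the proximal tubule, at 10 mg/kg/day in the food, started at an age of 24 weeks and kept up for 8 weeks. In the methods of the study, the ZL and ZF rats of the time course had kidney wedge biopsies and the ZF rats of the treatment study were a separate purchase; the study's text on the sequencing calls the ZF rats nontreated, its name for the control arm of the treatment study, whereas the labels name no set. Values are given in the order of these rat numbers, as CPM, reads scaled to the size of the library, with the TMM correction for its makeup.

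Each library held 8824980 to 12210257 reads on genes. Reads on the ribosomal RNA genes Rn28s and Rn45s took 7.25% to 12.0% of them in ZL rats and 8.82% to 12.0% in ZF rats, but 11.5% to 15.2% in ZF-SGLT2i rats, and their part in the results was not tested. Markers of the labelled tissue were present in every rat, with the proximal tubule list summing to 15430 CPM or more and the podocyte list to 1294 CPM or more. The tissue was a mixture of cell types, so that fewer cells of a type and less RNA per cell cannot be told apart.

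Oxidants in the cell are met by the glutathione and thioredoxin systems, and both draw their electrons from NADPH. Many of the genes are under the transcription factor NRF2 (gene Nfe2l2), which is held back by KEAP1 and, when released, pairs with a small MAF protein and binds the antioxidant response element. The proximal tubule is rich in mitochondria and peroxisomes, takes up and rebuilds much of the body's glutathione, secretes GPX3 into plasma and carries NOX4, an oxidase that needs the p22phox subunit (gene Cyba) at the membrane.

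The promoters were searched for the core letters of the antioxidant response element, TGACNNNGC, on both strands, since this element is what ties several of these genes together. The windows ran from 250 bases before to 50 bases after the start in RefSeq, build GRCr8, and a window was found for 10 of the 10 genes. Gclm, Txnrd1 and Sod2 held the letters, 3 of 10 genes, against 15 of 64 other genes of the antioxidant and oxidant systems (23.4%), 15% of all genes of the table with a window and 12.1% of all 33469 windows. The stretches are printed to show the matches side by side, 5′ to 3′ on the strand of the gene, with the match in capitals; that of Txnrd1 lies before a start inside the gene, which RefSeq places at chr7:22717620-22802553, and not at its outer end. In each the letters read as the reverse complement of the element. The first 4 letters also occur in AP-1 and MAF sites, and a match is a description of the letters, not a bound site.
Gclm, chr2:213031943-213031991, + strand, match 172 to 164 bases before the start: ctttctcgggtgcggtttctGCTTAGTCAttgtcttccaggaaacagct
Txnrd1, chr7:22755954-22756002, - strand, match 78 to 70 bases before the start: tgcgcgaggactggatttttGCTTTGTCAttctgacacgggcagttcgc
Sod2, chr1:50050175-50050223, - strand, match 35 to 27 bases before the start: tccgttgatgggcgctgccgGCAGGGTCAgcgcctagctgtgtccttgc

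The first comparison asked how these genes stood in obese against lean renal cortex. ZF rats had lower Gclc, Gclm, Txnrd1, Sod1, Sod2 and Cat than ZL rats, 6 of the 10 genes at an adjusted p under 0.05, and none of the 10 was higher. The fall in Gclc, to 0.127 of the ZL mean, was the largest of the 10. Nqo1, Srxn1, Gpx3 and Nox4 did not pass the test. Among all tested genes 10.6% were lower and 18.8% were called in either direction. Every ZF rat lay below every ZL rat in Gclc, Txnrd1, Sod2 and Cat, 4 of the 10, against 10.3% of all tested genes. The median log2 fold change of the 10 genes was -0.32, beside -0.01 over all tested genes.

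**Figure D1:**
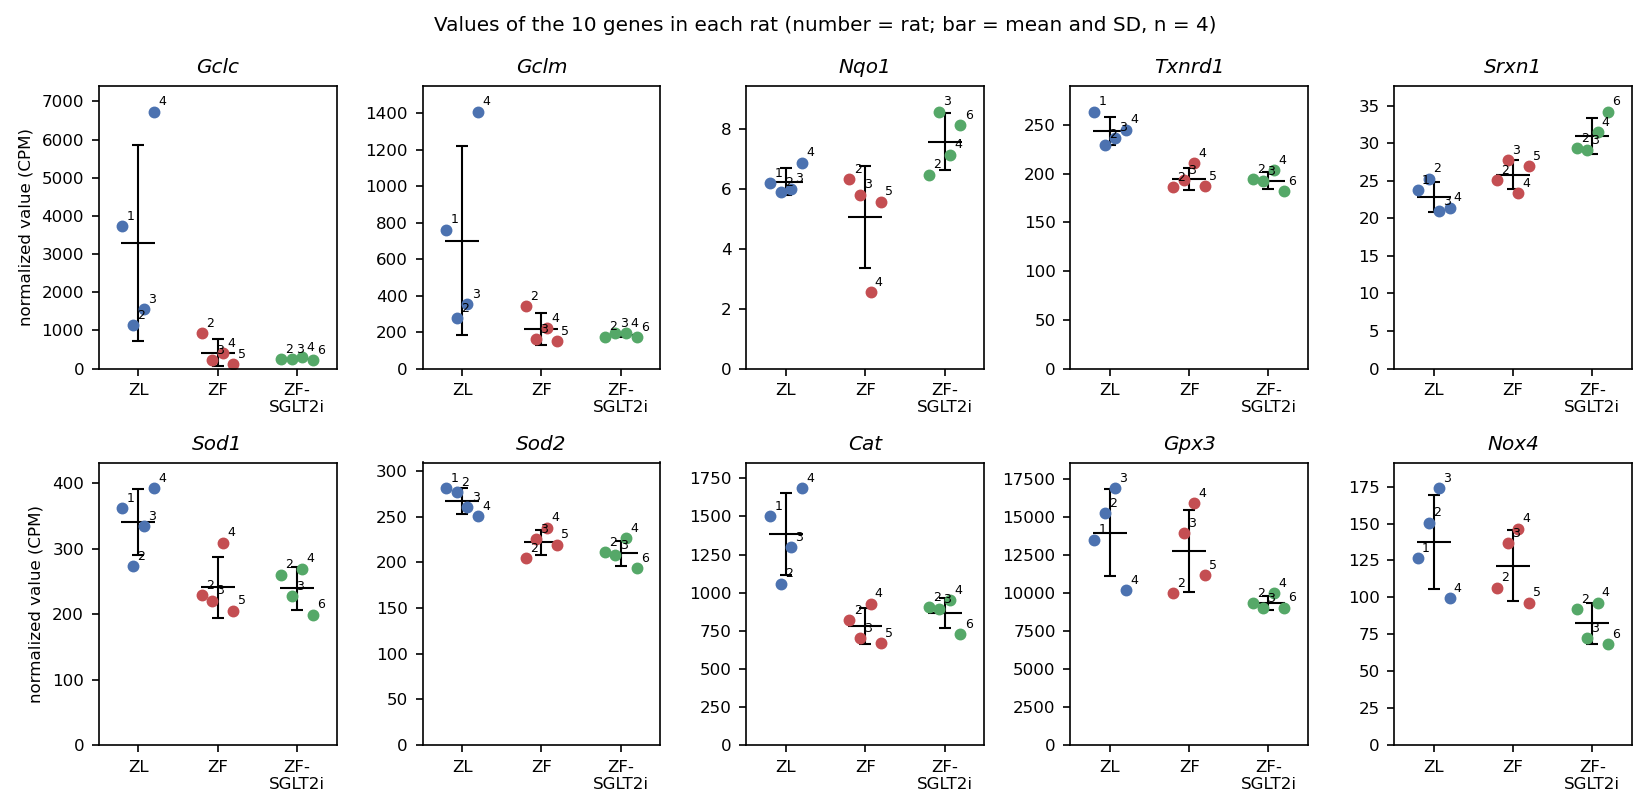
Normalized values (CPM, linear axis from 0) of the 10 genes, 1 point per rat with the rat number beside it; bars show mean and SD of 4 rats. Gclc and Gclm were highest in ZL rats 4 and 1, Cat, Sod2 and Txnrd1 of every ZF rat sat below every ZL rat, and Srxn1 was highest in ZF-SGLT2i rats.

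Gclc encodes the catalytic subunit of glutamate-cysteine ligase, the rate-limiting step of glutathione synthesis. Its values were 3722, 1134, 1559 and 6730 CPM in ZL, 923, 214, 412 and 120 CPM in ZF, and 237, 240, 293 and 224 CPM in ZF-SGLT2i rats. The groups ZL and ZF did not overlap, but rats varied widely within each: the highest ZL rat stood 5.93 times above the lowest, and the highest ZF rat 7.71 times, whereas in ZF-SGLT2i rats the spread was 1.31 times. Mean Gclc was 3286 ± 2560 CPM (SD, n = 4) in ZL against 417 ± 359 CPM (SD, n = 4) in ZF, which gave a log2 fold change of -3.03 (SE 0.57, adjusted p = 0.0037; exact permutation p = 0.0286, the smallest that 4 rats against 4 allow).

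Gclm encodes the modifier subunit that binds GCLC and raises its activity. It stood at 761, 275, 355 and 1409 CPM in ZL, 342, 163, 221 and 148 CPM in ZF, and 175, 194, 196 and 172 CPM in ZF-SGLT2i rats. ZF rat 2 lay above ZL rat 2, so the groups overlapped. The log2 fold change of ZF against ZL was -1.46 (SE 0.40, adjusted p = 0.023; exact permutation p = 0.0571). This call was lost in a fit of ZL and ZF alone (adjusted p = 0.062) and on leaving out ZL rat 1 (0.068), ZF rat 3 (0.068) or ZF rat 5 (0.063).

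The rats ranked alike for both subunits in each group, from high to low 4, 1, 3, 2 (ZL), 2, 4, 3, 5 (ZF) and 4, 3, 2, 6 (ZF-SGLT2i). Their CPM ratio, Gclc over Gclm, not corrected for gene length, ranged from 4.13 to 4.89 in ZL rats, from 0.806 to 2.70 in ZF rats and from 1.24 to 1.49 in ZF-SGLT2i rats. Every ZL rat was above every rat of the other groups, so that Gclc was lower relative to Gclm in all of the obese rats.

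The markers of the proximal straight tubule, the last stretch of the proximal tubule, moved with Gclc and Gclm. All 4 of them (Slc3a1, Slc7a13, Slc5a1 and Slc22a7, all membrane transporters) were lower in ZF than in ZL rats (background 10.6%). Slc3a1 was the most abundant in every rat. Slc22a7 was near the floor, with 13 to 160 reads in ZL and 0 to 27 reads in ZF rats. Their summed level was 3305, 1321, 1863 and 5731 CPM in ZL, 1271, 708, 1065 and 574 CPM in ZF, and 701, 760, 772 and 566 CPM in ZF-SGLT2i rats. The rats stood in the same order for this sum as for Gclc and Gclm in all 3 groups. The order was not particular to these markers. Of the thick limb markers, Umod stood in it in ZL and ZF but not in ZF-SGLT2i rats, and Slc12a1 in ZL rats only. Slc7a13, an amino acid transporter of that segment, was at 838, 140, 244 and 1896 CPM in ZL but at 148, 21.4, 36.0 and 6.12 CPM in ZF rats. Sod1, Cat and Nqo1 had this order of rats in ZL, though not in ZF.

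Markers of injured tubule also differed between the groups, 7 of 9 being higher in ZF than in ZL rats (Havcr1, Lcn2, Krt8, Krt18, Spp1, Clu and Cd44; background 8.19%) and none lower. With treatment 1 of the 9, Vcam1, was lower (background 1.75%). In ZF-SGLT2i against ZL 6 were higher (background 12.4%) and 1, Vcam1, was lower (background 15.0%). The sum of the 9 markers, with Spp1 the most abundant, was 577, 533, 478 and 572 CPM in ZL, 2141, 884, 1659 and 756 CPM in ZF, and 1355, 1318, 998 and 617 CPM in ZF-SGLT2i rats. ZF rats 2 and 4, the highest ZF rats here, were also the highest ZF rats for Gclc and Gclm, and the part of these markers in the results was not tested.

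Both ways of setting the straight tubule level aside were chosen after the straight tubule markers had been seen. With ZL rats 1 and 4 left out, the ZL rats highest in these markers, Gclc was still lower in ZF (log2 fold change -2.08, adjusted p = 0.036), and so were Cat (-0.60, 0.026), Txnrd1 (adjusted p = 0.040) and Sod2 (0.048), while Gclm (-0.59, 0.15) and Sod1 (-0.34, 0.20) were not called. With the mean log2 level of the 4 markers as a term, none of the 10 genes was called in ZF against ZL, 4 had an unadjusted p under 0.05, Gclc was at -0.43 (adjusted p = 0.12) and Gclm turned to 0.31 (adjusted p = 0.34). The term itself differed between the groups, so obesity and the straight tubule level cannot be told apart with these rats.

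**Figure D2:**
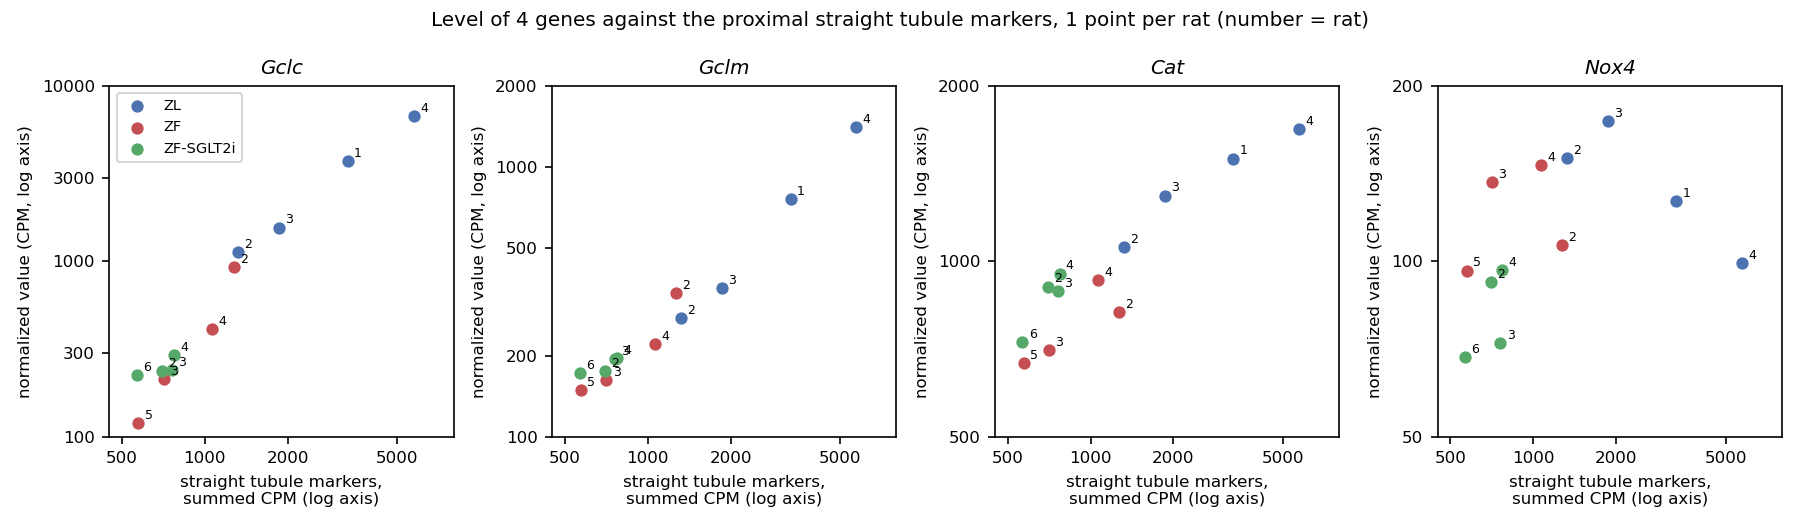
Values (CPM, log axis) of Gclc, Gclm, Cat and Nox4 against the summed CPM of the 4 straight tubule markers (log axis), 1 point per rat. Gclc and Gclm were lowest in ZF rat 5 and highest in ZL rat 4, near the ends of the marker range, whereas the ZL rat highest in the markers, rat 4, was the lowest ZL rat for Nox4.

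Cat encodes catalase, the peroxisomal enzyme that breaks down hydrogen peroxide. It stood at 1501, 1059, 1297 and 1685 CPM in ZL, 819, 704, 928 and 668 CPM in ZF, and 905, 890, 953 and 727 CPM in ZF-SGLT2i rats. Every ZL rat lay above every ZF and ZF-SGLT2i rat. The mean fell from 1386 ± 269 to 780 ± 118 CPM (SD, n = 4 each), a log2 fold change of -0.82 (SE 0.14, adjusted p = 0.0023). With the straight tubule term it was -0.32 (adjusted p = 0.22).

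Sod1 encodes the cytosolic copper-zinc superoxide dismutase, and Sod2 the mitochondrial manganese enzyme. Sod1 was at 362, 273, 335 and 393 CPM in ZL, 229, 221, 309 and 206 CPM in ZF, and 261, 228, 270 and 199 CPM in ZF-SGLT2i rats. ZF rat 4 reached into the ZL range. The fall, -0.50 on the log2 scale (SE 0.14, adjusted p = 0.023; exact permutation p = 0.0571), lost its call on leaving out any of ZL rats 1 and 4 and ZF rats 2, 3 and 5 (adjusted p 0.056 to 0.067) and under quantile normalization (-0.36, 0.064).

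Sod2 was at 281, 277, 261 and 250 CPM in ZL, 205, 225, 238 and 219 CPM in ZF, and 211, 208, 227 and 194 CPM in ZF-SGLT2i rats. The ZL rats were all above the rats of the other groups. The log2 fold change of ZF against ZL was small, -0.27 (SE 0.06, adjusted p = 0.012), and -0.16 (adjusted p = 0.064) under quantile normalization.

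Txnrd1 encodes the cytosolic thioredoxin reductase, which passes electrons from NADPH to thioredoxin. Its values were 264, 230, 237 and 245 CPM in ZL, 186, 193, 211 and 188 CPM in ZF, and 194, 192, 204 and 182 CPM in ZF-SGLT2i rats. No ZL rat overlapped with the other groups. Txnrd1 was lower in ZF by a log2 fold change of -0.33 (SE 0.06, adjusted p = 0.0034), and the value was -0.25 (adjusted p = 0.14) with the straight tubule term.

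Nqo1, the quinone reductase often read as a reporter of NRF2, was scarce in this tissue, with 30 to 85 reads per rat. Its values were 6.19, 5.89, 6.01 and 6.88 CPM in ZL, 6.33, 5.81, 2.56 and 5.57 CPM in ZF, and 6.47, 8.58, 7.14 and 8.14 CPM in ZF-SGLT2i rats. ZF rat 4 was the low value, and ZF and ZL rats overlapped (log2 fold change -0.31, SE 0.19, adjusted p = 0.28).

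Srxn1 encodes sulfiredoxin, which repairs overoxidized peroxiredoxins. It was at 23.8, 25.3, 21.0 and 21.4 CPM in ZL, 25.1, 27.8, 23.4 and 27.0 CPM in ZF, and 29.3, 29.1, 31.5 and 34.2 CPM in ZF-SGLT2i rats. The ZF-SGLT2i rats lay above all others, and ZF and ZL rats overlapped (0.17, SE 0.08, adjusted p = 0.17).

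Gpx3, the secreted glutathione peroxidase, took more reads than nearly any other gene, ranking 4th by CPM in 11 of the 12 rats and 5th in ZL rat 4. It stood at 13528, 15277, 16919 and 10207 CPM in ZL, 10014, 13976, 15930 and 11209 CPM in ZF, and 9327, 9040, 10018 and 9058 CPM in ZF-SGLT2i rats. The ZF rats spread over most of the ZL range, with only ZL rat 3 above every ZF rat (log2 fold change -0.13, SE 0.22, adjusted p = 0.72; 0.11 under quantile normalization, which sets a gene of fixed rank to a fixed value). In each group the rats ranked for Gpx3 as they did for Slc5a2, the gene of SGLT2 itself and a marker of the early proximal tubule.

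Nox4 encodes the NADPH oxidase that is most abundant in tubule cells and makes hydrogen peroxide. It was at 127, 151, 174 and 99.2 CPM in ZL, 107, 137, 146 and 96.4 CPM in ZF, and 92.3, 72.4, 96.5 and 68.6 CPM in ZF-SGLT2i rats. ZL and ZF rats overlapped over most of their range (log2 fold change -0.17, SE 0.17, adjusted p = 0.55), and the 95% interval ran from -0.54 to 0.20.

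The second comparison asked what canagliflozin changed in the obese rats. None of the 10 genes passed an adjusted p under 0.05 in ZF-SGLT2i against ZF rats with limma, against 3.15% of all tested genes; 3 of the 10 had an unadjusted p under 0.05 (background 17.2%), edgeR called 0 and DESeq2 called 1. The 3 were Nqo1 (log2 fold change 0.55, SE 0.19, unadjusted p = 0.012, adjusted p = 0.14), Srxn1 (0.26, SE 0.08, unadjusted p = 0.0081, adjusted p = 0.12) and Nox4 (-0.55, SE 0.17, unadjusted p = 0.0071, adjusted p = 0.11). Nqo1 and Srxn1 were higher in all 4 treated rats than in any ZF rat, 2 of the 10 genes, while 5.54% of all tested genes were so. For Nqo1 the gap was within counting error, 6.47 CPM (68 reads) in ZF-SGLT2i rat 2 against 6.33 CPM (66 reads) in ZF rat 2. This comparison shares its ZF rats with the first.

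Nox4 had mean values of 122 ± 23.8 CPM in ZF and 82.4 ± 14.0 CPM in ZF-SGLT2i rats (SD, n = 4 each). The groups touched, with ZF-SGLT2i rat 4 at 96.5 and ZF rat 5 at 96.4 CPM. Its call depended on the method: DESeq2 gave an adjusted p of 0.033, array quality weights 0.031, the straight tubule term 0.044 and the fit without ZL rats 1 and 4 0.045, and edgeR did not call it. The summed proximal tubule markers, with Lrp2 the most abundant, had means of 24131 CPM in lean, 20186 CPM in obese and 17874 CPM in treated obese rats. The 10 markers did not all follow this order: with treatment Slc22a6 was called lower and no other was called, Slc5a2 was at -0.19 (adjusted p = 0.62), and the means of Cubn, Aqp1 and Slc22a8 were higher in ZF-SGLT2i than in ZF rats. Their part in the Nox4 values was not tested.

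The genes that were low in ZF rats did not pass the test for a change with treatment. Gclc differed by -0.35 (95% interval -1.58 to 0.89, adjusted p = 0.81) and Gclm by -0.17 (-1.03 to 0.69, 0.88), intervals that hold large changes in either direction, and both turned positive without ZF rat 2 (0.17 and 0.07). For Txnrd1 (-0.01, interval -0.14 to 0.12), Sod2 (-0.08, -0.22 to 0.06) and Sod1 (0.00, -0.30 to 0.29) the intervals were narrower. Cat was at 0.16 (-0.15 to 0.47) and Gpx3 at -0.43 (-0.89 to 0.04). In the ZF-SGLT2i rats Gpx3 was also less spread, the highest being 1.11 times the lowest against 1.59 times in ZF.

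**Figure D3:**
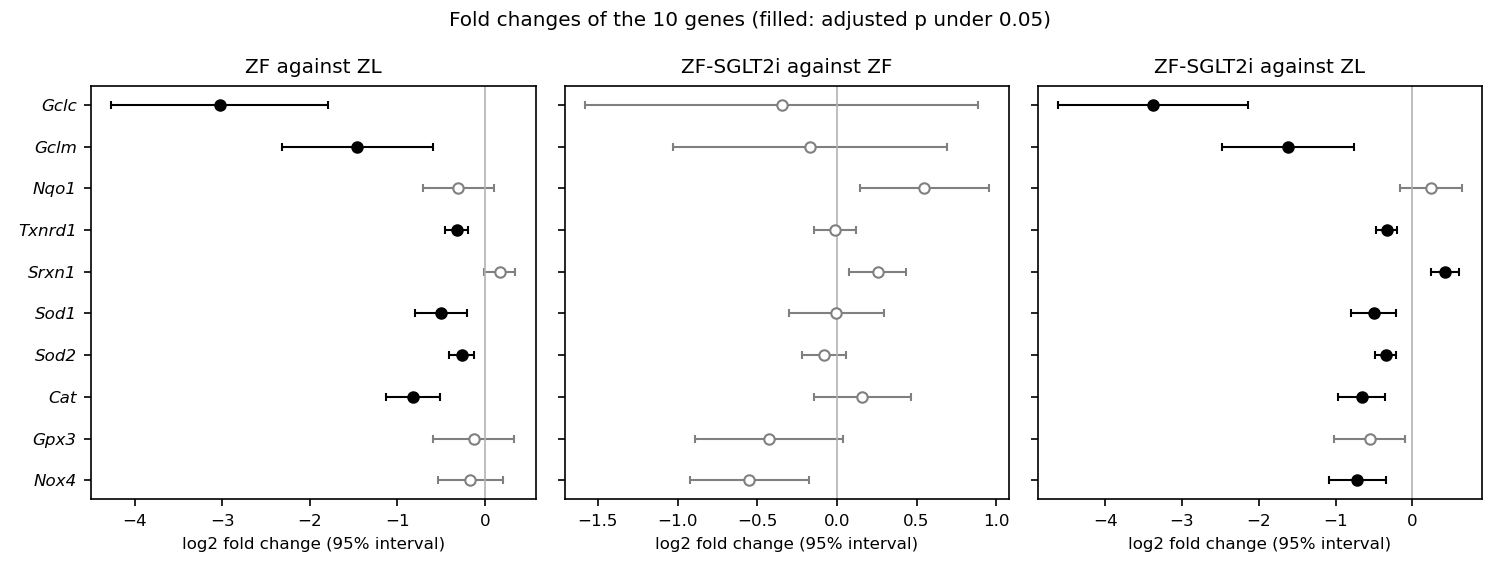
Log2 fold changes of the 10 genes with 95% intervals from limma in the 3 comparisons (x axes differ in range); filled points passed an adjusted p of 0.05. Filled points lie left of 0 for 6 genes in ZF against ZL, are absent in ZF-SGLT2i against ZF, and in ZF-SGLT2i against ZL lie left for 7 genes and right for Srxn1.

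The third comparison set the treated obese rats against the lean rats, which it shares with the first. Here 7 of the 10 genes were lower (background 15.0%), namely Gclc, Gclm, Txnrd1, Sod1, Sod2, Cat and Nox4, and Srxn1 was higher (background 12.4%). Gclc was at 0.0756 of the ZL mean, a log2 fold change of -3.38 (SE 0.57, adjusted p = 0.00098), and Gclm at -1.62 (SE 0.40, 0.0090). Nox4 was at -0.72 (SE 0.17, 0.0081), with every ZF-SGLT2i rat below every ZL rat, and Srxn1 at 0.42 (SE 0.08, 0.0023). Every ZF-SGLT2i rat lay below every ZL rat in 8 of the 10 genes (background 15.1%) and above in 1 (background 12.9%), and 27.4% of all tested genes were called in either direction. Cat, Sod1, Sod2 and Txnrd1 were at -0.66, -0.50, -0.35 and -0.34, and Sod1 lost its call without ZF-SGLT2i rat 6 (0.055). Gpx3 did not overlap between the groups but missed the threshold with limma (-0.56, SE 0.22, adjusted p = 0.071); edgeR gave 0.021 and DESeq2 0.0016. Only Sod2 and Nox4 of the 10 were called with the straight tubule term, and without ZL rats 1 and 4 there were 6 calls, with Gclm (0.055), Cat (0.060) and Sod1 (0.16) lost and Gpx3 (0.049) gained.

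The list of other genes of the antioxidant and oxidant systems held 81 symbols, 75 of them in the deposited data, and 68 passed the filter. In ZF against ZL 6 were higher and 21 lower, in ZF-SGLT2i against ZF 1 was lower, and in ZF-SGLT2i against ZL 8 were higher and 24 lower. Over all tested genes 18.8%, 3.15% and 27.4% were called in these comparisons, the higher calls being 8.19%, 1.39% and 12.4% and the lower calls 10.6%, 1.75% and 15.0%; the counts by role stand against the same shares, and 1 of 68 with treatment is under its background. Their median log2 fold changes were -0.11, 0.01 and -0.11. With the straight tubule term the counts for obesity and for treated obese against lean rats fell to 4 and 5, and without ZL rats 1 and 4 to 9 and 20.

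**Figure D4:**
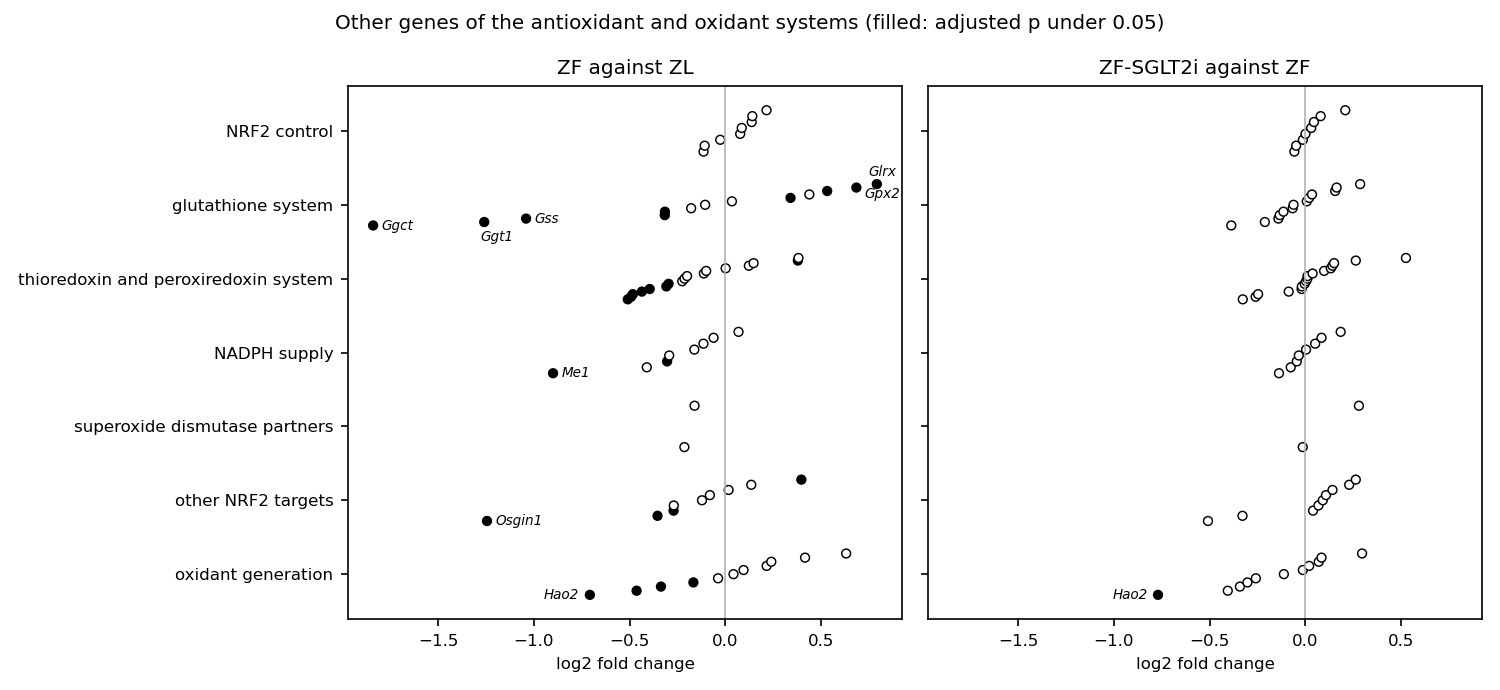
Log2 fold changes of the 68 other genes tested, by role, for ZF against ZL (left) and for treated against untreated ZF (right); each point is 1 gene, and filled points passed an adjusted p of 0.05. Ggct, Ggt1 and Gss lie at the left and Glrx and Gpx2 at the right in ZF against ZL, and only Hao2 is filled in ZF-SGLT2i against ZF.

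Of the 8 tested genes that control NRF2 none was called in ZF against ZL or with treatment by limma, with 2 and 0 at an unadjusted p under 0.05, where all tested genes gave 33.1% and 17.2%. Nfe2l2 itself was at 168, 163, 175 and 154 CPM in ZL, 170, 182, 181 and 194 CPM in ZF, and 176, 189, 189 and 174 CPM in ZF-SGLT2i rats. All groups overlapped, with log2 fold changes of 0.14 (SE 0.06, adjusted p = 0.11) in ZF against ZL and 0.00 (SE 0.06, 1.00) with treatment. Keap1, which marks NRF2 for degradation, was at 0.08 (adjusted p = 0.35) and 0.03 (0.83), and Bach1, a repressor that competes for the same elements, at -0.11 (0.33) and -0.06 (0.76). In ZF-SGLT2i against ZL 1 of the 8, Cul3, the ubiquitin ligase scaffold that works with KEAP1, was lower (-0.16, 0.045), a call lost in 12 of 24 alternatives.

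In the glutathione system 5 of 13 tested genes were lower and 4 higher in ZF than in ZL rats. Gss, which joins glycine in the final step of glutathione synthesis, was at 271, 132, 144 and 430 CPM in ZL, 139, 92.4, 123 and 76.8 CPM in ZF, and 83.3, 79.4, 80.2 and 77.2 CPM in ZF-SGLT2i rats. It fell by 1.04 on the log2 scale (adjusted p = 0.027), with ZF rat 2 above ZL rat 2, and turned to 0.24 with the straight tubule term. Ggct and Ggt1, of the gamma-glutamyl cycle that takes glutathione apart, fell by 1.84 (adjusted p = 0.0012) and by 1.26 (0.016). Ggt1 turned to 0.14 with the straight tubule term. Ggct lost its call in 1 of 24 alternatives (adjusted p up to 0.056), over which its log2 fold change ran from -2.06 to -0.61.

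The genes of this system that were higher in ZF rats were Glrx and 3 glutathione peroxidase genes, while another peroxidase gene of the list, Gpx4, whose enzyme reduces lipid peroxides in membranes, was lower (-0.32, SE 0.08, adjusted p = 0.019; lost in 6 of 24 alternatives) with no overlap. Glrx, a glutaredoxin that reduces mixed disulfides, was at 4.76, 5.20, 4.76 and 6.43 CPM in ZL and at 8.05, 10.5, 10.8 and 10.2 CPM in ZF rats, with no overlap (log2 fold change 0.79, SE 0.13, adjusted p = 0.0014). Gpx1, the cytosolic glutathione peroxidase, was higher by 0.53 (SE 0.13, 0.014), Gpx2 by 0.68 (SE 0.16, 0.012) and Gpx8 by 0.34 (SE 0.09, 0.017). In the treated rats Glrx (0.95), Gpx2 (0.97) and Gpx1 (0.47) were also above ZL. With the straight tubule term Gpx1 was at 0.15 (adjusted p = 0.65) in ZF against ZL. Slc7a11, the cystine transporter that is a well-known NRF2 target, had at most 4 reads in any rat and was not tested.

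Of 17 thioredoxin and peroxiredoxin genes 7 were lower in ZF than in ZL rats and 1 was higher. Txn1, the cytosolic thioredoxin, fell by 0.51 on the log2 scale (adjusted p = 0.018), Msra, which repairs oxidized methionine, by 0.49 (0.017), and the peroxiredoxin genes Prdx1, Prdx3 and Prdx6 by 0.48 (0.036), 0.44 (0.0047) and 0.40 (0.010), the call of Prdx1 being lost in 11 of 24 alternatives. Txnrd3, another thioredoxin reductase, was higher (0.38, 0.012). With treatment none was called and 4 had an unadjusted p under 0.05. Txnip, which binds and inhibits thioredoxin and responds to glucose, stood at 608, 805, 489 and 381 CPM in ZL, 620, 715, 713 and 834 CPM in ZF, and 991, 985, 1050 and 1105 CPM in ZF-SGLT2i rats. It was called only in ZF-SGLT2i against ZL (0.91, SE 0.17, adjusted p = 0.0019), its change with treatment being 0.53 (SE 0.17, adjusted p = 0.12). The call against ZL was lost in 1 of 24 alternatives (adjusted p up to 0.58), over which the value ran from 0.25 to 1.15.

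Of 8 genes that supply NADPH, Me1 and Idh2 were lower in ZF than in ZL rats. Me1, the cytosolic malic enzyme, was at 116, 74.6, 80.4 and 131 CPM in ZL and at 48.6 to 55.6 CPM in ZF rats, with no overlap (log2 fold change -0.90, SE 0.15, adjusted p = 0.0017). Me1 lost this call in 1 of 24 alternatives (adjusted p up to 0.16), over which its log2 fold change ran from -1.03 to -0.34. Idh2, the mitochondrial isocitrate dehydrogenase, fell by 0.30 (adjusted p = 0.014). Neither of Sod3, the extracellular superoxide dismutase, and Ccs, which loads copper into SOD1, was called in any of the 3 comparisons.

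Of 9 further NRF2 targets 3 were lower and 1 higher in ZF rats. Osgin1, induced by oxidative stress, was at 212, 89.7, 124 and 477 CPM in ZL and 127, 66.9, 59.9 and 68.3 CPM in ZF rats, overlapping through ZF rat 2 (-1.24, SE 0.39, adjusted p = 0.038), and was at 0.30 with the straight tubule term. Ugdh, which makes UDP-glucuronate, and Ftl1, the ferritin light chain, fell by 0.35 (0.029) and by 0.27 (0.044), the latter turning to 0.05 under quantile normalization. Cbr1, a carbonyl reductase, was higher (0.40, 0.042). Hmox1, the inducible heme oxygenase, was at 0.02 in ZF against ZL (SE 0.17, adjusted p = 0.96) and was lower in ZF-SGLT2i than in ZL rats (-0.49, SE 0.17, 0.047). These calls were unsteady. Of 24 alternatives in ZF against ZL, 14 lost that of Cbr1, 16 that of Ftl1 (besides the reversal), 10 that of Osgin1 (besides the reversal) and 9 that of Ugdh. For Hmox1 16 of 23 lost the call. In ZF-SGLT2i against ZL, Ftl1 (-0.60, adjusted p = 0.00034) and Cbr1 (0.63, 0.0028) each lost the call in 1 of 24 alternatives (adjusted p up to 0.073 and 0.50). Osgin1 (-1.14, 0.042) lost it in 11, besides 1 reversal, and Ugdh (-0.31, 0.037) in 8.

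Among the sources of oxidants, the partners of NOX4 and the phagocyte oxidase passed no test in any comparison, apart from Poldip2, a NOX4-binding protein, which was lower in ZF than in ZL (-0.17, adjusted p = 0.043), a call lost in 17 of 24 alternatives (adjusted p up to 0.44). Cyba, the p22phox subunit, was at 94.8, 105, 95.8 and 68.1 CPM in ZL, 78.3, 98.4, 114 and 83.4 CPM in ZF, and 80.9, 71.5, 78.8 and 61.8 CPM in ZF-SGLT2i rats. The groups overlapped, and the differences were 0.04 (SE 0.14, adjusted p = 0.87) in ZF against ZL and -0.34 (SE 0.14, adjusted p = 0.22) with treatment. Of the oxidase genes listed, Nox1, Duox1, Duox2 and Duoxa1 were in the table but under the filter on low values, and Nox3, Noxo1 and Noxa1 were not analysed here.

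The listed peroxisomal oxidases Hao2 and Dao were lower in ZF than in ZL rats. Hao2, a hydroxy acid oxidase that releases hydrogen peroxide, was at 4098, 3118, 3824 and 4052 CPM in ZL, 2144, 2283, 2984 and 1905 CPM in ZF, and 1383, 1206, 1887 and 1045 CPM in ZF-SGLT2i rats. No group overlapped with the next, so the order was ZL, ZF, ZF-SGLT2i. The log2 fold changes were -0.71 (SE 0.18, adjusted p = 0.015) for obesity, -0.77 (SE 0.18, 0.032) with treatment and -1.48 (SE 0.18, 9.7e-05) for treated obese against lean rats. The change with treatment lost its call on leaving out any of ZF rats 2, 3 and 4 or ZF-SGLT2i rats 2, 3 and 6 (adjusted p 0.065 to 0.11), and the fall in ZF without ZL rats 1 and 4 (0.12) and with the straight tubule term (-0.41, 0.39). Dao, which oxidizes D-amino acids, fell by 0.34 on the log2 scale (adjusted p = 0.041) in ZF, and 14 of 24 alternatives lost the call.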

How the data were processed

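Renal cortex RNA from 12 rats, 4 per group, was sequenced after ribosomal RNA depletion with a directional kit. The deposited signal values are read counts that the authors scaled; dividing by 1 constant per rat gave whole reads (100% of values within 1e-06 of a whole number), and the constants equal those of CPM with edgeR's TMM factors. The submitters' processing notes name Trimmomatic 0.38, RSEM 1.3.0, Bowtie2, edgeR and rn6, without their roles. Sequences and gene names were matched by symbol to RefSeq, GRCr8, which is not the build of the files, so positions are given only for the printed sequences and the Txnrd1 gene.

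Groups came from the labels, which name no batch and do not say more of how the rats were drawn. Values were taken as log2(value + 1), genes reaching a value of 1 in 4 or more rats were kept (11633 of 13151), and the 3 groups were fitted together with limma 3.58.1 (trend) in R 4.3.3, with two-sided p-values adjusted by Benjamini-Hochberg over all tested genes and a call at an adjusted p under 0.05. Fold changes are on this log2(value + 1) scale, which understates changes of low genes. Single genes were also given a two-sided exact permutation test over the 70 assignments of rats. As alternatives the pseudocount was set to 0.1 and the filter dropped, and these were also run: a mean of at least 10, median-ratio rescaling, quantile normalization, a fit of 2 groups at a time, the rat number as a block, array quality weights, the quasi-likelihood test of edgeR 4.0.16 and DESeq2 1.42.0 on the recovered reads, and leaving out each rat; a straight tubule term and leaving out ZL rats 1 and 4 together were added after the data had been seen. In simulated data for ZF against ZL with 200 changed genes among 11492, limma recovered 97%. When none was changed, it called 0 of 11508 genes (4.68% at an unadjusted p under 0.05), with 0 by edgeR and 4 by DESeq2. The planted changes were all larger than those of Txnrd1, Sod1, Sod2 and Cat, and genes were drawn independently of each other. The simulation therefore cannot speak for smaller changes, or for false calls where genes vary together between rats.

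The members and the gene lists were chosen with earlier results of these data known. Genes named were the 10 listed genes, Nfe2l2, Keap1, Bach1 and Cyba, at most 6 called genes of each role group and comparison by size of change, the 3 genes nearest in pattern to each called member with a change of at least 0.5, and the called and most abundant markers of each cell type list; Cul3, Sod3, Ccs, Slc7a11, Gpx4, Gpx8, the genes under the filter, and values of Txnip and Hmox1 outside the comparison that called them were added after their values were seen. Rats of 1 group differed by more than counting error (chi-square per gene 5.56 to 51.6), so none was a copy. A few genes of the lists are counted but not reported by name here.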

Additional observations from a re-analysis of the deposited data

Results flagged for a closer look

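In 47 named genes, 141 groups of 4 rats were searched for a single outlying rat, and 3 were found where chance gives 7.05. Osgin1 was at 126.9 CPM in ZF rat 2, with the other ZF rats between 59.9 and 68.3 CPM. Cbr1 was at 17.0 CPM in ZF-SGLT2i rat 4, the others lying between 15.1 and 15.4 CPM. Sesn1 was at 48.7 CPM in ZF rat 4, against 34.3 to 36.5 CPM in the other ZF rats.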

How the results depend on the processing

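Of 1960 values of named genes under an alternative, 1610 kept their direction and side of the threshold, 311 lost a call, 11 gained one and 28 reversed; causes were not tested. The rat numbers did not pair the samples: deviations of same-numbered rats correlated at -0.38 to 0.25. With the rat number as a replicate block, the calls among all tested genes, the 10 genes and the other pathway genes fell from 2185, 6 and 27 to 807, 3 and 6 for ZF against ZL; for ZF-SGLT2i against ZL those of all and pathway genes fell from 3184 and 32 to 1502 and 14; with treatment all calls fell from 366 to 223, and Txnrd1 and Sod1 turned to 0.00078 and 0.011. Of the 10 genes, the block ended the calls of Gclm (adjusted p = 0.17), Sod1 (0.061) and Sod2 (0.10) in ZF against ZL and of Gclm (0.079) and Nox4 (0.081) in ZF-SGLT2i against ZL.

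With the straight tubule term the calls were 625, 0 and 4 in ZF against ZL, 586, 1 and 3 with treatment, and 609, 2 and 5 in ZF-SGLT2i against ZL. Without ZL rats 1 and 4 they were 1044 (all) and 9 (pathway) in ZF against ZL, 1 of the 10 and 3 pathway genes with treatment, and 1772 and 20 in ZF-SGLT2i against ZL. Under the straight tubule term the log2 fold changes turned positive for Gclm (0.31), Ggt1 (0.14), Gss (0.24) and Osgin1 (0.30) in ZF against ZL, for Gclc (0.15), Gclm (0.17), Txnrd1 (0.0045) and Sod1 (0.065) with treatment, and for Gclm (0.48), Gss (0.093), Ggt1 (0.29), Prdx1 (0.13), Taldo1 (0.026) and Osgin1 (0.70) in ZF-SGLT2i against ZL.

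With treatment, array quality weights gave 689 calls in all, 1 of the 10 and 5 pathway genes, and turned Txnrd1 (0.00056) and Sod1 (0.038) positive; DESeq2 gave 641, 1 and 3; and a mean of at least 10, a fit of only the groups compared and edgeR each gave 2 pathway genes in place of 1. Quantile normalization turned Gpx3 (0.11 against ZL in both ZF and ZF-SGLT2i rats) and Ftl1 (0.050 in ZF against ZL); rescaling moved the median of all genes by under 0.02.

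Leaving out each rat in turn gave 1384 to 2453 calls in all, 4 to 6 of the 10 and 16 to 32 pathway genes in ZF against ZL, 176 to 569 and 0 to 4 pathway genes with treatment, and 19 to 32 pathway genes in ZF-SGLT2i against ZL. Counts over 1.5 times away came without ZL rat 1 (1384), ZF rat 2 (1454) or ZF rat 3 (1426, pathway 16) in ZF against ZL, and without ZL rat 1 (20) or ZF-SGLT2i rats 3 (20) or 6 (19) for the pathway genes of ZF-SGLT2i against ZL. With treatment they came without ZF rats 2 (206), 3 (184), 4 (188) or 5 (569) or ZF-SGLT2i rats 3 (176), 4 (209) or 6 (181) in all, and in pathway genes without ZL rats 2 (2) or 4 (4), and none without ZF rats 2 or 3 or ZF-SGLT2i rats 3 or 6. The treatment values that reversed for single rats ranged over the rats left out from -0.81 to 0.17 for Gclc and from -0.33 to 0.074 for Gclm (positive without ZF rat 2), from -0.036 to 0.029 for Txnrd1 (without ZF rat 4 or ZF-SGLT2i rat 6) and from -0.074 to 0.12 for Sod1 (without ZF rat 4 or ZF-SGLT2i rats 3 or 6). Genes with few reads, such as Nqo1, had a wide counting error.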

Other observations

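Genes whose pattern over the 12 rats lay nearest to that of a listed gene were sought among 8503 genes, by the root mean square difference of centred log2 values. For Gclc these were Gc, the vitamin D binding protein (0.10), Akr1c12l1 (0.27) and Hnmt, the histamine methyltransferase (0.30), against a median of 1.75 over all candidates. For Gclm they were Slc22a2, an organic cation transporter of the proximal tubule (0.17), Elfn1 (0.17) and Odc1, the ornithine decarboxylase (0.18), with a median of 0.95. Sod1 was nearest to Aldh6a1 (0.06), Aldh9a1 (0.07) and Sypl1 (0.08), and Cat to Mettl7b (0.09), Aldh8a1 (0.11) and Gsta4 (0.12), with medians of 0.33 and 0.42. Nox4 was nearest to Asl, the argininosuccinate lyase (0.11), Gas2 (0.12) and Polr3g (0.14), with a median of 0.42.

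Of the other cell type lists, the podocyte markers called higher against ZL, in both ZF and ZF-SGLT2i rats, included Nphs1, Podxl, Synpo and Cdkn1c. Collecting duct markers were higher for 1 of 7 in ZF against ZL (Scnn1g), 1 of 7 with treatment (Aqp2) and 4 of 7 in ZF-SGLT2i against ZL, their sum with Aqp2 leading being 2292 to 2641 CPM in ZF-SGLT2i rats, 1456 to 2115 CPM in ZF and 1299 to 2088 CPM in ZL rats. Fibroblast and smooth muscle markers were higher for 2 of 7 in ZF against ZL (Pdgfrb and Col1a1), lower for 3 of 7 with treatment (Pdgfrb, Col3a1 and Dcn) and lower for 3 of 7 in ZF-SGLT2i against ZL (Pdgfra, Col3a1 and Dcn). Among all tested genes the higher calls were 8.19%, 1.39% and 12.4% and the lower calls 10.6%, 1.75% and 15.0% in ZF against ZL, with treatment and in ZF-SGLT2i against ZL. Of 10 proximal tubule markers 1 was higher (Slc22a6) and 1 lower (Aqp1) in ZF against ZL, and 3 were lower in ZF-SGLT2i against ZL (Slc34a1, Lrp2 and Hnf4a).

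Endothelial markers were higher for 2 of 7 in ZF against ZL (Tie1 and Egfl7), and of thick limb and distal tubule markers 1 of 4 was higher (Slc12a3) and 1 lower (Umod) in ZF-SGLT2i against ZL. Cidec, 1 of 2 adipocyte markers tested, was lower in ZF than in ZL rats. No macrophage, lymphocyte or red blood cell marker was called by limma in any of the 3 comparisons, with 2 of 7, 1 of 2 and 2 of 3 at an unadjusted p under 0.05 in ZF against ZL (33.1% of all tested genes). Hbb, the adult beta globin, was at 0.303 to 10.0 CPM.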
